A study of Mus musculus with 22 samples.

Results

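The 6 genes described here lie on mouse chromosome 13, which also carries Atxn1, and are F2r, Spock1, Fam8a1, Cmya5, Yae1d1 and Snrnp48. They are 6 of the 12393 genes that a probe set with a single gene symbol represented on the arrays. They were chosen by name, with the genotype differences of Sca1 mice at both ages in view, so their values in that comparison are given as a description and support nothing further. Cerebellar RNA of 22 female mice was measured, 1 Affymetrix array per mouse, and the Sca1 and Sca7 arrays are deposited under different platforms. Sca1 knock-in mice carry an expanded CAG repeat in 1 Atxn1 allele (154Q/2Q), and 3 knock-in and 3 wild-type mice were taken at 4 weeks and 3 of each at 9 to 12 weeks. Each older group held a 9-week mouse (replicate 4) and 12-week mice (replicates 5 and 6). Sca7 knock-in mice carry an expanded repeat in 1 allele of Atxn7 (266Q/5Q), which lies on chromosome 14, and 5 knock-in and 5 wild-type mice were taken at 5 weeks. The strain label is C57BL/6J throughout, after 5 to 8 generations of backcrossing for the Sca1 line and 10 for the Sca7 line. The sources used here do not say whether the wild-type mice were littermates.

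Spinocerebellar ataxia type 1 is an inherited disease of the cerebellum in which ataxin-1, the protein of Atxn1, carries an expanded run of glutamine, and Purkinje cells are its best known target. Ataxin-1 is a nuclear protein that acts with the transcriptional repressor Capicua. In a knock-in line, DNA beside the targeted gene is inherited together with the targeted allele, over a stretch that backcrossing shortens. Whether any of the 6 genes lies in such a stretch was not tested.

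The 6 genes lie on both sides of Atxn1 (chr13:45549755-45964991, GRCm38.p6, RefSeq annotation). Yae1d1 (chr13:17986640-17993351) and Snrnp48 (chr13:38204914-38227663) lie at lower coordinates, with gaps of 27.56 and 7.322 megabases (Mb). Fam8a1 (chr13:46669477-46678064) is the closest, 0.7045 Mb from the end of Atxn1. Spock1 (chr13:57421195-57908332) follows at 11.46 Mb, and Cmya5 (chr13:93040713-93144724) and F2r (chr13:95601780-95618466) at 47.08 and 49.64 Mb. A single probe set represents Atxn1 on the arrays, and it lay below the filter on dim probe sets in both tables. Its mean log2 value was 2.75 in Sca1 knock-in and 2.63 in wild-type mice at 4 weeks, and 2.71 and 2.64 at 9 to 12 weeks. These values say nothing about the level of the targeted gene. Atxn7, the gene targeted in the other line, differed by -0.34 between Sca1 genotypes (adjusted p 0.425, limma, n = 3 a group) and by 0.12 between Sca7 genotypes.

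The 250 bases before the RefSeq start of 3 of the genes are shown, because F2r and Spock1 were the 2 that passed the test across all genes in Sca1 mice and Cmya5 had the largest gene-level difference of the 6. Capitals mark the motifs searched on either strand. One is the GC box with the letters GGGCGG, and another is the TATA box with the letters TATAAA. The CCAAT box is searched by the letters of its name, and the octamers that Capicua binds are TGAATGAA or TGAATGGA or TCAATGAA or TCAATGGA. The sequences are from RefSeq (GRCm38.p6) and run 5′ to 3′ on the minus strand, which all 3 genes use. They cover chr13:95618467-95618716 for F2r, chr13:57908333-57908582 for Spock1 and chr13:93144725-93144974 for Cmya5.
F2r: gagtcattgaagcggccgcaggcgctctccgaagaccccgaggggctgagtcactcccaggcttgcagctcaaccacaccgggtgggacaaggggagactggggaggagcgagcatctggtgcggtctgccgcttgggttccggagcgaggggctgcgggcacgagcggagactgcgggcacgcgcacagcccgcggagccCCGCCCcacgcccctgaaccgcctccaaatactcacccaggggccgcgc
Spock1: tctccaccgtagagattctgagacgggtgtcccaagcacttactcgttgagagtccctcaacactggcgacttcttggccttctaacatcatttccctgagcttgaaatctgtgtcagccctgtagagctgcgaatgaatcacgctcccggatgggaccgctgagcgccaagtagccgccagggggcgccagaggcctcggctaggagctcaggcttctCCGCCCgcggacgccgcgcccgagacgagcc
Cmya5: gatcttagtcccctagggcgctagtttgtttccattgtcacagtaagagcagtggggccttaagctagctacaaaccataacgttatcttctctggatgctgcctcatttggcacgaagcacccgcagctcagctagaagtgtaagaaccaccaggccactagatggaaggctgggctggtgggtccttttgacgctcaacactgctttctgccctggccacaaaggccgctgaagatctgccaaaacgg
F2r and Spock1 each held 1 GC box, and Cmya5 held none of the motifs. GC content was 70.8% for F2r, 61.2% for Spock1 and 52.8% for Cmya5, where the median over 32851 promoters of the same length was 52.4%. A Capicua octamer was found in none of the 6 promoters and in 3.19% of all promoters. A GC box was found in 32.7% of all promoters, a CCAAT box in 33.8% and a TATA box in 12.4%. Among the other members, Fam8a1 and Snrnp48 held 2 GC boxes each, overlapping by 2 bases in Fam8a1, Snrnp48 held 1 TATA box, and Yae1d1 held 1 GC box and 1 CCAAT box. A match is a description of the letters in this window, and no match says only that they are not there.

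F2r encodes protease-activated receptor 1, the cell-surface receptor that thrombin switches on by cutting off its outer end. In Sca1 knock-in cerebellum its probe set 1450852_s_at read 5.88, 6.24 and 6.12 at 4 weeks and 6.03, 5.50 and 5.69 at 9 to 12 weeks, in deposited log2 units. Wild-type mice read 5.07, 5.47 and 5.50 at 4 weeks and 5.03, 5.06 and 5.24 at 9 to 12 weeks. Every knock-in mouse was thus above every wild-type mouse of its age, although the lowest older knock-in mouse was close to the highest young wild-type mouse. The difference (knock-in minus wild type) was 0.73 ± 0.17 (limma SE, n = 3 mice a group) at 4 weeks and 0.63 ± 0.17 at 9 to 12 weeks. Over both ages F2r rose by 0.68 ± 0.12, or 1.60-fold, with a 95% confidence interval of 0.43 to 0.94 and an adjusted p of 0.0321 (limma, Benjamini-Hochberg over 9452 genes). The second probe set, 1437308_s_at, read higher in knock-in mice by 0.89 at 4 weeks and by 1.27 at 9 to 12 weeks. Its older knock-in mice read 4.55, 4.66 and 4.85 against 3.21, 3.59 and 3.46 in wild type, with no overlap. Its mean difference of 1.08 had an adjusted p of 0.0390 in a limma fit of all probe sets, where 1450852_s_at had 0.0568. In the gene-level fit the F2r call was kept on leaving out knock-in replicate 4 (adjusted p 0.0199) or 5 (0.0451), and was lost on leaving out any other of the 12 mice (0.0525 to 0.107).

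Spock1 encodes testican-1, a secreted proteoglycan of the extracellular matrix that is abundant in brain. Its probe set 1419672_at read 11.25, 11.48 and 11.30 in knock-in mice at 4 weeks and 11.08, 11.81 and 11.66 at 9 to 12 weeks. Wild-type mice read 10.74, 10.84 and 10.88 at 4 weeks and 10.95, 10.84 and 10.66 at 9 to 12 weeks. No wild-type mouse of either age reached any knock-in mouse. The 9-week knock-in mouse was the lowest of the 6 knock-in mice, and the 9-week wild-type mouse the highest of the 6 wild-type mice. The difference was 0.52 ± 0.16 at 4 weeks and 0.70 ± 0.16 at 9 to 12 weeks (limma SE, n = 3 a group). Over both ages Spock1 rose by 0.61 ± 0.11, or 1.53-fold, with a 95% confidence interval of 0.37 to 0.85 and an adjusted p of 0.0377 (limma). Without both 9-week mice the older difference was 0.99, with an adjusted p of 0.00826 (limma). The call over both ages was kept on leaving out knock-in replicate 4 (adjusted p 0.00268) and lost on leaving out any other mouse (0.0567 to 0.111). It was also lost with the replicate number as a block (0.0638) and without the intensity trend (0.0548). A second probe set, 1419673_at, differed by 0.23, with a 95% confidence interval of -0.10 to 0.56, and its groups overlapped at both ages.

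Fam8a1 encodes a membrane protein of the endoplasmic reticulum that assists the HRD1 ubiquitin ligase complex in the degradation of misfolded proteins. Its probe set 1433475_a_at read 11.22, 11.12 and 11.20 in knock-in mice at 4 weeks and 11.28, 11.32 and 11.30 at 9 to 12 weeks. Wild-type mice read 10.96, 10.91 and 10.95 at 4 weeks and 11.04, 11.14 and 11.16 at 9 to 12 weeks. The knock-in values lay above the wild-type values of the same age, and the young knock-in mice overlapped the older wild-type mice. The difference of 0.24 at 4 weeks and 0.18 at 9 to 12 weeks was the smallest of the 6 genes, and Fam8a1 also had the smallest standard error (0.04 for the mean difference of 0.21). The adjusted p of that mean was 0.0837 (limma, n = 3 a group), which missed the threshold of 0.05. The other probe set, 1433476_at, differed by 0.27 at 4 weeks and by 0.08 at 9 to 12 weeks.

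Cmya5 encodes myospryn, a large scaffold protein best known from skeletal and heart muscle, where it binds dysbindin and protein kinase A. Its single probe set, 1427312_at, read 6.14, 5.77 and 6.19 in knock-in mice at 4 weeks and 6.43, 5.69 and 5.74 at 9 to 12 weeks. Wild-type mice read 6.99, 6.74 and 6.63 at 4 weeks and 6.78, 7.16 and 6.46 at 9 to 12 weeks. The knock-in mice of both ages lay below all wild-type mice, with the 9-week knock-in mouse just under the lowest older wild-type mouse. The difference was -0.75 ± 0.22 at 4 weeks and -0.85 ± 0.22 at 9 to 12 weeks (limma SE, n = 3 a group). The mean of -0.80 was the largest in size among the probe sets used for the 6 genes (the second F2r probe set differed by 1.08), with a 95% confidence interval of -1.15 to -0.46 and an adjusted p of 0.0619 (limma). Without both 9-week mice the mean difference was -0.93 with an adjusted p of 0.0172.

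Yae1d1 encodes an adaptor that helps to insert an iron-sulphur cluster into Abce1, a protein that recycles ribosomes. Its probe set 1419660_at read 7.43, 7.46 and 7.51 in knock-in mice at 4 weeks and 7.50, 7.48 and 7.60 at 9 to 12 weeks. Wild-type mice read 7.96, 7.84 and 8.05 at 4 weeks and 7.82, 8.12 and 7.59 at 9 to 12 weeks. The young groups did not overlap, and in the older groups wild-type replicate 6 lay among the knock-in mice. The difference was -0.48 ± 0.13 at 4 weeks and -0.32 ± 0.13 at 9 to 12 weeks (limma SE, n = 3 a group), and the mean of -0.40 had an adjusted p of 0.105. The 3 probe sets of Yae1d1 disagreed. 1419661_at was 0.23 higher in knock-in mice at 4 weeks, while 1449557_at differed by 0.03 at 4 weeks and by -0.39 at 9 to 12 weeks.

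Snrnp48 encodes a protein of the U11 and U12 particle, which recognises the rare introns removed by the minor spliceosome. Its probe set 1425319_s_at read 8.03, 7.76 and 7.99 in knock-in mice at 4 weeks and 8.64, 8.07 and 8.30 at 9 to 12 weeks. Wild-type mice read 8.41, 8.53 and 8.30 at 4 weeks and 8.67, 8.39 and 8.71 at 9 to 12 weeks. The young groups did not overlap, whereas the 9-week knock-in mouse lay within the older wild-type range. The difference was -0.49 ± 0.15 at 4 weeks and -0.25 ± 0.15 at 9 to 12 weeks (limma SE, n = 3 a group), and the mean of -0.37 had an adjusted p of 0.176. Of its other 3 probe sets, 1437180_at was lower by a similar amount at 4 weeks (-0.58) and differed by -0.11 at 9 to 12 weeks. The remaining probe sets, 1423633_at and 1429908_at, had mean differences of 0.09 and 0.17, in the opposite direction.

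**Figure D1:**
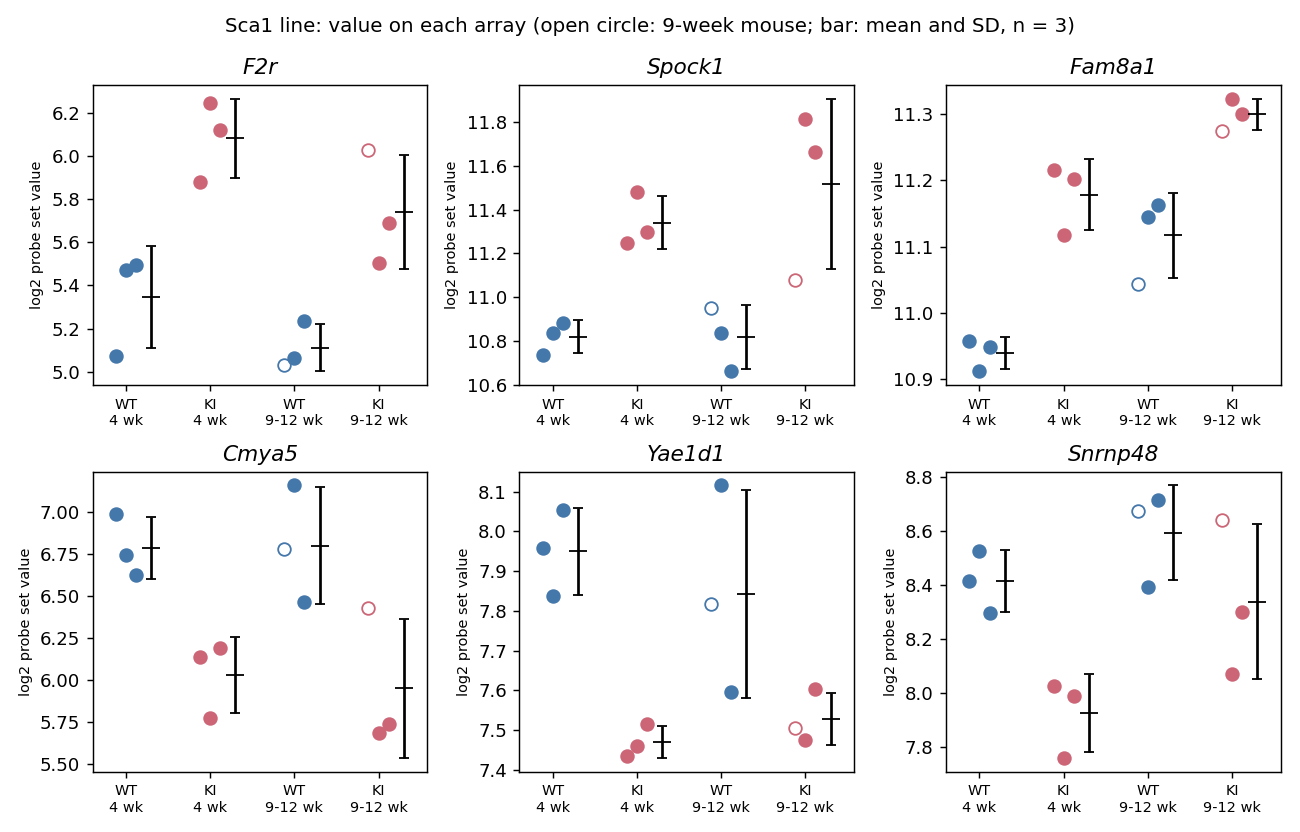
Log2 probe set value (vertical axis) of each of the 6 genes on every Sca1 array, by genotype and age group (horizontal axis), with the group mean and SD (n = 3) as bars and open circles for the 9-week mice. F2r, Spock1 and Fam8a1 lie higher and Cmya5 lower in knock-in mice at both ages, while Yae1d1 and Snrnp48 are separated at 4 weeks and overlap at 9 to 12 weeks.

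In the mean of both ages, 2 of the 6 genes, F2r and Spock1, passed the adjusted threshold, where 33 of 9452 genes (0.349%) did. All 6 had an unadjusted p under 0.05, where 12.9% of the genes tested did. These shares describe the choice of the genes and are not evidence about them. At 4 weeks, limma called 0 of 9452 genes (0%), with 5.74% of genes and 6 of the 6 members at an unadjusted p under 0.05. At 9 to 12 weeks it called 14 genes (0.148%), none of them a member, with 9.19% of genes and 5 of the 6 members at an unadjusted p under 0.05. The groups did not overlap in the same direction at both ages for 4 of the 6 members, F2r, Spock1, Fam8a1 and Cmya5, and for 2.5% of all genes tested. At 4 weeks alone the groups did not overlap for 6 of the 6 members and for 13.5% of all genes, and at 9 to 12 weeks alone for 4 members and 12.1% of all genes.

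Across all 14 probe sets of the members, the 8 that were not used for the gene-level values pointed the same way as the one used in 5 cases and the opposite way in 3. The 3 opposite ones belong to Snrnp48 and Yae1d1. Of these, 1429908_at of Snrnp48 and 1419661_at of Yae1d1 were dim, with mean log2 values of 3.47 and 3.71 over the Sca1 arrays. The filter cut was 2.80. The other, 1423633_at of Snrnp48, had a mean of 6.70. Both probe sets of F2r, Spock1 and Fam8a1 were higher in knock-in mice at both ages. Probe sets of one gene match different parts of its transcripts, and names ending in _s_at mark probe sets that can match more than 1 transcript, so their levels are not compared with each other.

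**Figure D2:**
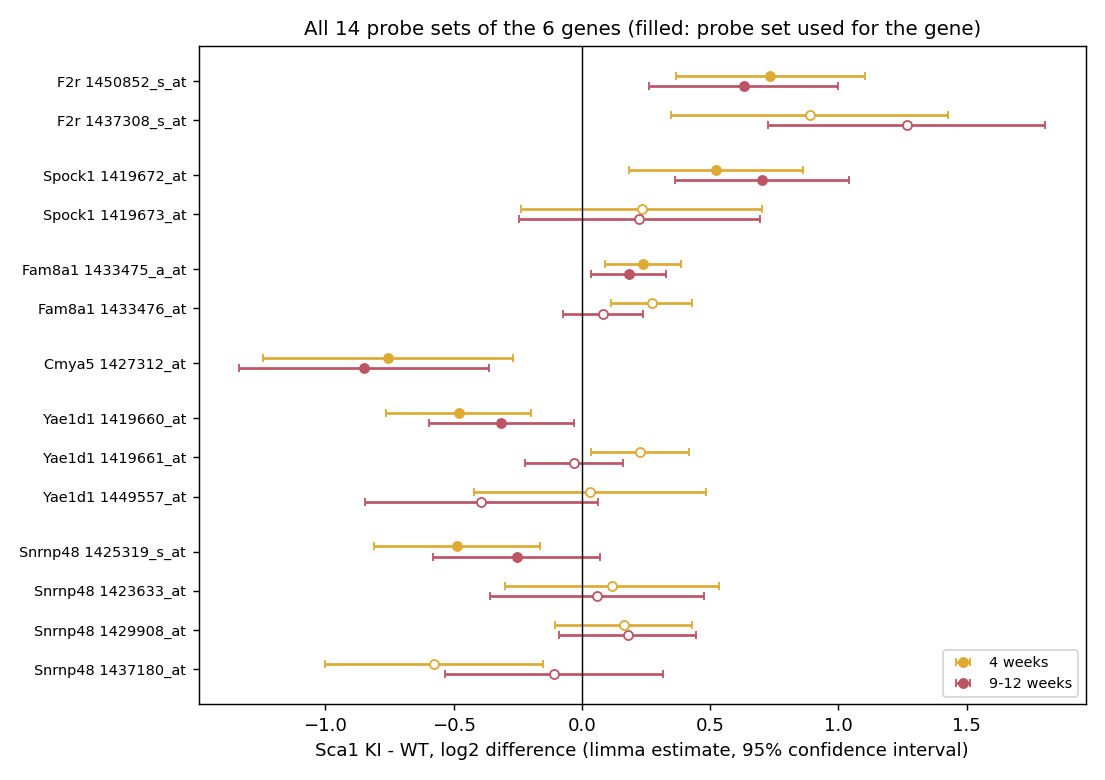
Sca1 knock-in minus wild type, in log2 units with 95% confidence intervals from limma, for all 14 probe sets of the 6 genes at 4 weeks and at 9 to 12 weeks, with filled points for the probe set used for the gene. Both F2r probe sets lie above 0 at both ages with intervals that exclude it, and the probe sets of Yae1d1 and Snrnp48 fall on both sides of 0.

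All 6 genes had the same direction at 4 weeks and at 9 to 12 weeks. They were chosen with both ages in view, so this and the comparison of ages below are given as a description. The share of all genes with the same direction was not counted. The difference was larger in size at 4 weeks for F2r, Fam8a1, Yae1d1 and Snrnp48, and at 9 to 12 weeks for Spock1 and Cmya5. The change of the genotype difference from 4 to 9 to 12 weeks was -0.10 for F2r, 0.18 for Spock1, -0.06 for Fam8a1, -0.09 for Cmya5, 0.16 for Yae1d1 and 0.23 for Snrnp48. The widest 95% confidence interval belonged to Cmya5, from -0.78 to 0.60, and the narrowest to Fam8a1, from -0.25 to 0.14. Limma called 0 of 9452 genes (0%) in this comparison. At an unadjusted p under 0.05 it held 2.23% of all genes and 0 of the 6 members.

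Age within wild-type mice was a separate question, tested in mice that also served as controls in the genotype comparison that chose the genes. Limma called 41 of 9452 genes (0.434%) between 9 to 12 and 4 weeks, and 0 of the 6 members. At an unadjusted p under 0.05 stood 12.7% of all genes and 1 member, Fam8a1. Fam8a1 was 0.18 higher in the older wild-type mice, with a 95% confidence interval of 0.04 to 0.32 and an adjusted p of 0.260 (limma). Its older and younger groups did not overlap, and the share of all genes without such overlap was not counted. Its other probe set, 1433476_at, was 0.32 higher. F2r differed by -0.24 (95% confidence interval -0.60 to 0.12), and its second probe set by -0.71 (-1.25 to -0.17). Snrnp48 differed by 0.18 (-0.14 to 0.50) and Yae1d1 by -0.11 (-0.39 to 0.18). A second Yae1d1 probe set, 1449557_at, differed the opposite way, by 0.60 (0.15 to 1.05). The intervals of Spock1 (-0.34 to 0.34) and Cmya5 (-0.48 to 0.50) were centred near 0. The 41 calls became 0 on leaving out wild-type replicate 1 or 3 of the 4-week group, and 0 members passed under any alternative run.

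Sca7 mice carry no targeted DNA on chromosome 13 and did not enter the choice of the genes. Limma called 0 of 9488 genes (0%) between Sca7 genotypes at 5 weeks, and also 0 under each alternative run. At an unadjusted p under 0.05 it held 3.69% of all genes and 1 of the 6 members, Yae1d1. Yae1d1 read 8.30, 8.39, 8.19, 8.10 and 7.99 in knock-in mice and 8.27, 8.37, 8.32, 8.56 and 8.55 in wild-type mice. The groups overlapped, with the 2 lowest values in knock-in and the 2 highest in wild-type mice. The Yae1d1 difference was -0.22 ± 0.09 (limma SE, n = 5 a group), with an adjusted p of 0.986, and its other 2 probe sets differed by 0.03 and -0.03.

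The other 5 genes had Sca7 differences nearer to 0. F2r was represented by 1437308_s_at in this table, and read 6.88, 6.90, 6.76, 6.76 and 7.05 in knock-in mice and 6.99, 7.50, 6.83, 6.94 and 6.93 in wild-type mice. The groups overlapped, and wild-type replicate 2 stood above all others. The F2r difference was -0.17 (95% confidence interval -0.43 to 0.10), and by 1450852_s_at, the probe set used in Sca1 mice, it was 0.05 (-0.11 to 0.20). The Spock1 difference was 0.08 (-0.01 to 0.17), with knock-in values of 11.05 to 11.26 and wild-type values of 11.04 to 11.09. Cmya5 differed by -0.18 (-0.39 to 0.04), with knock-in values of 6.84 to 7.05 and wild-type values of 6.83 to 7.31. Fam8a1 differed by -0.06 (-0.20 to 0.07) and Snrnp48 by -0.04 (-0.27 to 0.18).

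By the probe set used for each gene, Spock1, Cmya5, Yae1d1 and Snrnp48 had the same sign in both lines, and F2r and Fam8a1 the opposite one. For F2r these were different probe sets. By 1450852_s_at in both lines its sign was the same, with 0.68 in the mean of both Sca1 ages and 0.05 in Sca7 mice. The share of all genes with the same sign was not counted. The Sca7 groups did not overlap for 0 of the 6 members, and for 0.548% of all genes tested. The lines are deposited under different array platforms and differ in age, generations of backcrossing and targeted gene. How the values of either line were normalized is not given. The difference between lines was not tested.

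**Figure D3:**
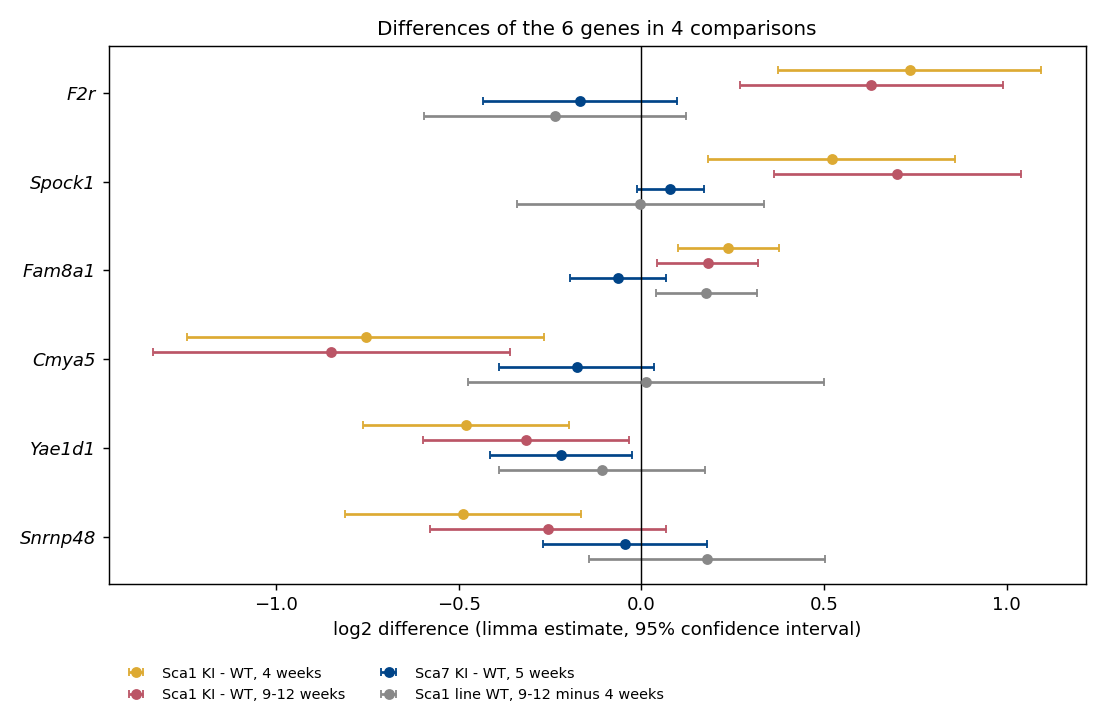
Log2 difference with its 95% confidence interval from limma for each of the 6 genes in 4 comparisons, namely Sca1 genotype at 4 weeks and at 9 to 12 weeks (n = 3 a group), Sca7 genotype at 5 weeks (n = 5 a group) and wild-type age in the Sca1 line (n = 3 a group). The Sca1 intervals exclude 0 at both ages for all genes but Snrnp48, whose interval at 9 to 12 weeks includes it, whereas the Sca7 intervals include 0 for all genes but Yae1d1.

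Of 352 genes on chromosome 13 that were tested in the Sca1 table, F2r, Spock1 and Cmya5 had the 3 smallest p-values in the mean of both ages. Fam8a1 ranked 5, Yae1d1 7 and Snrnp48 12. The genes just outside the choice were Ly86 with -0.67 (adjusted p 0.0660, limma, n = 3 a group), Sox4 with 0.47 (0.101) and Fam169a with 0.47 (0.108). They rank 4, 6 and 8, so the chosen genes are not simply those with the smallest p on the chromosome. In Sca7 mice these 3 genes differed by -0.07, 0.17 and -0.00.

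The members were chosen by name, so their spread along the chromosome describes the choice. Within 5 Mb of Atxn1, 7 of 31 genes (22.6%) had an unadjusted p under 0.05 in the mean of both ages, and Fam8a1 is 1 of the 7. Each bin holds both sides of Atxn1. The share was 15.8% of 57 genes from 5 to 10 Mb, where Snrnp48 lies. With Snrnp48, Ly86 and Rreb1 (lower in knock-in mice) and Cdyl and Dsp (higher) made up this share at lower coordinates. At higher coordinates it held Thoc3 and Nfil3 (lower) and Rab24 and Rgs14 (higher). The genes tested on each side were not counted. From 10 to 20 Mb, where Spock1 lies, the share was 11.6% of 69 genes. It was 13.2% of 91 genes from 20 to 40 Mb, the bin of Yae1d1, and 14.4% of 104 genes farther away, the bin of F2r and Cmya5. At each age by itself the nearest bin held 3 of 31 genes (9.68%), where chromosome 13 held 7.1% at 4 weeks and 9.66% at 9 to 12 weeks. In the mean of both ages the whole chromosome stood at 14.5% of 352 genes and all other chromosomes at 12.8% of 9085 genes. In Sca7 mice the bin nearest to Atxn1 held 3 of 35 genes (8.57%), with 4.86% on chromosome 13 and 3.65% elsewhere. Genes in a bin are not replicates, the nearest bin is small, and these shares are given without a test.

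**Figure D4:**
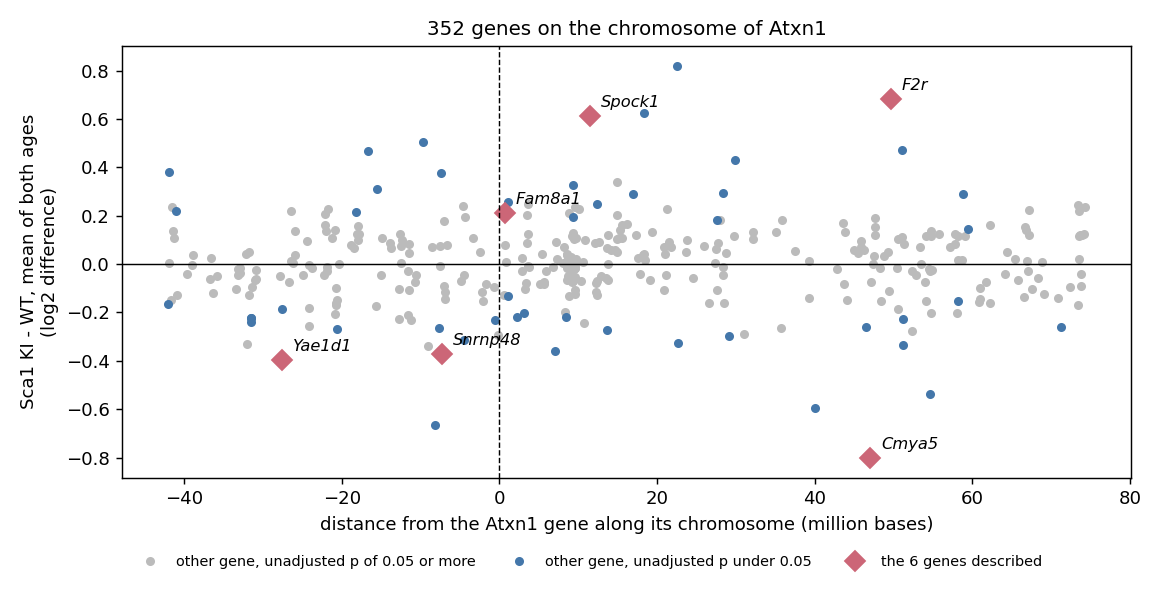
Sca1 knock-in minus wild type, mean of both ages in log2 units (vertical axis), against the distance from Atxn1 in Mb (horizontal axis), for 352 genes on its chromosome, with the 6 genes as diamonds and other genes at an unadjusted p under 0.05 in blue. Fam8a1 lies next to Atxn1, and F2r and Cmya5 lie more than 40 Mb away, with differences of 0.68 and -0.80.

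The nearest genes above the filter on each side did not pass the adjusted threshold for any member, where 0.349% of all genes tested did. Genes below the filter may lie nearer. Beside F2r, Aggf1 differed by -0.11 and Poc5 by -0.02, and beside Spock1, Trpc7 differed by 0.10 and Idnk by 0.09. Beside Fam8a1, Cap2 differed by -0.13 and Nup153, whose annotated start lies close to the end of Fam8a1, by 0.08. Beside Cmya5, Zfyve16 differed by -0.26 and Tent2 by -0.07, and beside Yae1d1, Rala differed by -0.19 and Vps41 by -0.07. Beside Snrnp48, which was lower in knock-in mice, Dsp differed by 0.38 and Bmp6 by 0.18. On the lower side of Atxn1 itself, Mylip differed by -0.29, Dtnbp1 by -0.23 and Jarid2 by -0.09. The unadjusted p (limma) was under 0.05 for Dtnbp1 (0.0136), Rala (0.0374), Dsp (0.0390) and Zfyve16 (0.0453), as it was for 12.9% of all genes tested. The adjusted p of all these neighbours in the mean of both ages ran from 0.263 for Dtnbp1 to 0.949 for Poc5 (limma, n = 3 a group). Farther from Snrnp48, beyond Dsp, Riok1 differed by -0.01, Ssr1 by 0.07, Rreb1 by -0.27 and Ly86 by -0.67. Rreb1 and Ly86 thus had the sign of Snrnp48, with adjusted p of 0.155 and 0.0660 (limma).

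The genes most like each member over the 12 Sca1 arrays lay on other chromosomes. Only 352 of the 9437 tested genes with a RefSeq position lie on chromosome 13. Spock1 was followed most closely by Robo1, an axon guidance receptor (Pearson r 0.945), and Tcl1b3 (0.942). F2r was followed by Itga4, an integrin subunit (0.914), and B3gnt9 (0.875), and Fam8a1 by Gbe1 (0.920) and Ltbp2 (0.910). Cmya5 was followed by Stk17b (0.925) and Pde9a (0.905), Yae1d1 by Patz1 (0.894) and Ak4 (0.862), and Snrnp48 by Nbn (0.938) and Smpd4 (0.923). These are the highest among all genes tested, over arrays that share the same genotype and age groups. Over the 10 Sca7 arrays the same pairs ran from -0.55 for Snrnp48 with Smpd4 to 0.36 for Fam8a1 with Gbe1. Robo1 was itself higher in Sca1 knock-in mice by 0.55, with an adjusted p of 0.0196 (limma).

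The relatives and partners of each member were read from lists of the pathway, family or complex. In the mean of both ages limma called 0 genes in each list once the member itself was left out, against 0.349% of all genes. The counts at an unadjusted p under 0.05 that follow are to be read against 12.9% of all genes. The median difference over all 9452 genes was -0.01. Of 21 other genes of thrombin signalling, 15 were measured above the filter, with 1 higher and 2 lower at an unadjusted p under 0.05 and a median of -0.03. The other thrombin receptors F2rl2 and F2rl3 and the thrombin gene F2 were below the filter, and F2rl1 was not matched to a probe set. Among the signal carriers downstream of the receptor, Gna11 differed by -0.16 and the phospholipase Plcb1 by 0.26. Of the Spock and Sparc family, 7 of 7 other genes were measured, with 0 at an unadjusted p under 0.05. Spock2 differed by 0.14 and Spock3 by -0.07, the latter being 0.28 at 4 weeks and -0.43 at 9 to 12 weeks. Smoc2 (0.16) and Fstl1 (-0.13) had the smallest p in this list.

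Of 11 other genes of the HRD1 complex, the partners of Fam8a1, 10 were measured and 1 stood at an unadjusted p under 0.05, Sel1l with -0.26. Derl2 had the next smallest p with -0.17, and the list's median was 0.02. Of 7 partners of myospryn, 5 were measured and 1 stood at an unadjusted p under 0.05, Dtnbp1, the gene of dysbindin, with -0.23 (adjusted p 0.263, limma, n = 3 a group). Ppp3ca differed by -0.08. Of 16 other names linked to iron-sulphur delivery to Abce1, some of them older symbols of one gene, 9 were measured, with 2 higher and 1 lower at an unadjusted p under 0.05. Ciao1 differed by 0.23 and Nubp1 by -0.30, and Abce1 itself by -0.15. Of 8 other minor spliceosome genes, 4 were measured, with a median of -0.18 in the mean of both ages. The median was -0.26 at 4 weeks and -0.09 at 9 to 12 weeks. Rnpc3 differed by -0.27 at 4 weeks and by 0.16 at 9 to 12 weeks. In the mean of both ages, Zmat5 (-0.23) was the 1 of these 4 genes at an unadjusted p under 0.05, and Pdcd7 differed by -0.15.

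Markers of cerebellar cells were high, with array means over 5 of 6 Purkinje cell markers of 13.25 to 13.57 and over 5 of 6 granule cell markers of 12.66 to 13.05 in Sca1 mice. Of 6 forebrain markers, 4 were not matched to a probe set, and the other 2, Neurod6 and Tbr1, had array means of 3.74 to 4.48. Some marker means lay apart by genotype in the older mice. The Purkinje cell mean was 13.25 to 13.32 in knock-in and 13.42 to 13.57 in wild-type mice, and the granule cell mean 12.66 to 12.79 and 12.79 to 12.87, without overlap at full precision. The granule cell groups were barely apart (12.785 against 12.789), and these markers did not differ alike at 9 to 12 weeks. Cbln1 differed by -0.29, Cbln3 by -0.21 and Neurod1 by -0.13, but Gabra6 by 0.01 and Zic1 by 0.07. Rgs8, which turns off G protein signals, was the Purkinje cell marker that passed the test, with -0.50 at 9 to 12 weeks (adjusted p 0.0328, limma, n = 3 a group), while the other 4 differed by -0.18 to -0.12 there. The mean of 6 of 6 Bergmann glia and astrocyte markers was 10.74 to 10.94 against 10.95 to 11.18, and that of 5 of 5 microglia markers 6.63 to 6.65 against 6.72 to 6.83. The microglia markers did not differ alike, with -0.56 for Csf1r and -0.23 for C1qa at 9 to 12 weeks but 0.07 for Aif1 and 0.10 for C1qb, and a list median of -0.02. At 4 weeks the groups overlapped for these 4 lists. Endothelial and mural cell markers, of which 4 of 6 passed the filter and Cdh5 and Kdr did not, overlapped at both ages. The 1 blood marker above the filter, Alas2, was 1.74 to 2.69 in older knock-in and 2.69 to 7.40 in older wild-type mice. Skeletal muscle markers, of interest for Cmya5, were low, with 2 of 5 above the filter at means of 3.11 to 3.54, and were 3.23 to 3.54 in knock-in and 3.20 to 3.22 in wild-type mice at 4 weeks, with overlap in the older mice. Oligodendrocyte, choroid plexus, meningeal and forebrain means overlapped at both ages, and in Sca7 mice all of these lists overlapped between genotypes. The part of these marker levels in the 6 genes' differences was not tested. In whole cerebellum, fewer cells of a type and less RNA per cell cannot be told apart.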

How the data were processed

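Cerebellar RNA of 22 mice was hybridised to Affymetrix arrays, 1 per mouse, with each mouse labelled a biological replicate. The arrays of the Sca1 and Sca7 lines are deposited under different platforms. The authors deposited 1 table per line with log2 values of 22690 probe sets. The submitters' processing notes name GCOS 1.1. Normalization, summary method and log base are not given in the sources used here, and base 2 was taken from the range of the values, which were used unscaled. Array medians ran from 6.08 to 6.21 (Sca1) and from 6.87 to 6.99 (Sca7). Precision is limited by how many arrays there are.

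Of the probe sets, 64 controls were left out, and 20380 with 1 symbol were used. A gene took its probe set with the highest mean, and the lowest 25% of probe sets were left out, which kept 9452 (Sca1) and 9488 (Sca7) genes, all 6 members among them. Each table was fitted by limma 3.58.1 in R 4.3.3 (lmFit, eBayes with an intensity trend), two-sided, with Benjamini-Hochberg adjustment over all genes kept and a threshold of 0.05. The code was tested on simulated data. For Sca1, each genotype-by-age group had its own mean, and 1 spread was shared by 12 arrays. Positions and promoters are from RefSeq (GRCm38.p6), which held promoters of all 6 members. Replicate numbers recur in both genotypes. Deviations of same-numbered mice correlated by 0.41 and 0.46 for Sca1 replicates 4 and 5 but by -0.21 to 0.04 for the other 4 Sca1 pairs, so no block was used.

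The members, partner lists and marker lists were chosen with earlier results of these data known. Besides the members, the text names the targeted genes and the 3 other genes of chromosome 13 with the smallest adjusted p. It also names the nearest genes above the filter, the 2 most correlated genes, thrombin receptors, Spock genes and Dtnbp1. The 2 genes of each partner list with the smallest p are named too. Abce1 and single cell markers were added after their values were seen. Alternatives were quantile normalization, other filters, all probe sets, no trend, array weights, a replicate block, each age by itself, no 9-week mice and each mouse left out.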

Additional observations from a re-analysis of the deposited data

Results flagged for a closer look

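In Sca7 mice, 2 single values stood apart from their group by Dixon's criterion. The F2r value of wild-type replicate 2 was 7.497 by 1437308_s_at, and its gap to the nearest other wild-type mouse was 0.762 of the group's range. The Cmya5 value of knock-in replicate 5 was 7.047, with a gap of 0.751 of the range. Without that wild-type mouse the F2r difference was -0.05. The check covered 14 groups of 5 mice, and chance marks about 1 in 20 such groups. The Sca1 groups of 3 were not checked.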

How the results depend on the processing

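The sign of all 6 genotype differences in Sca1 mice, taken as the mean of both ages, was kept under every alternative run, except that F2r was not tested under a filter that leaves out 50% of probe sets. Calls were not stable. Genes called in that mean numbered 375 with array weights, 158 without both 9-week mice and 20 with the replicate block, against 33. At 9 to 12 weeks they numbered 258, 78 and 6 under the same settings, 5 after quantile normalization and 0 with each age fitted by itself, against 14. Wild-type age gave 26 genes after quantile normalization and 209 with array weights, against 41. Leaving out 1 mouse gave 5 to 200 genes in the mean, 0 to 1 at 4 weeks, 2 to 152 at 9 to 12 weeks, 0 to 1 for the difference between ages and 0 to 65 for wild-type age, with the most without knock-in replicate 4 in the mean. The cause was not tested. Spock1 had an adjusted p of 0.0638 with the replicate block and 0.0548 without the intensity trend. Array weights took Fam8a1 (0.0164), Snrnp48 (0.0471), Cmya5 (0.00751) and Yae1d1 (0.0264) past the threshold. Of 20 alternatives, Fam8a1 passed in 2, Snrnp48 in 2, Cmya5 in 4 and Yae1d1 in 1. Their highest adjusted p (limma) was 0.208, 0.332, 0.151 and 0.247, in that order. Same-numbered Sca1 mice correlated by -0.21 to 0.46 (0.41 for the 9-week mice and 0.46 for replicate 5) and Sca7 mice by -0.13 to 0.11, so not every pair deviated together, and 5 of 12 and 3 of 10 arrays correlated best with their own number. Without a filter, 24 genes over 40 Mb from Atxn1 had an unadjusted p under 0.05, against 15. Small differences changed sign. The median over all probe sets was 0.0313 for Yae1d1 at 4 weeks, 0.136 for F2r and -0.257 for Yae1d1 in the difference between ages, and 0.0437 for Yae1d1 with wild-type age. Array weights gave 0.0250 for Snrnp48 in Sca7 mice. Leaving out 1 mouse moved the difference between ages from -0.247 to 0.0323 for F2r and from -0.333 to 0.0848 for Cmya5. It moved wild-type age from -0.0707 to 0.0743 for Spock1, from -0.166 to 0.180 for Cmya5 and from -0.244 to 0.0168 for Yae1d1, and the Sca7 difference of Snrnp48 from -0.0957 to 0.0410.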
